A study of Mus musculus with 28 samples.

Results

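Splenic dendritic cells that the study labels hybrid are compared here with cDC1 of the same mice's genotype, Irf8 +32H/H (written H/H), which carries the Irf8 allele named +32H on both copies. The labels do not say what the allele changes. Type 1 conventional dendritic cells are called cDC1, and those of type 2 are called cDC2. The comparison was made in both experiments of the study. It takes 8 of the series' 28 libraries, 2 of hybrid cells and 2 of cDC1 from each experiment, chosen by their labels and by no measured value. Joined by Ensembl gene ID, with a term for the experiment, they give 4 hybrid libraries against 4 cDC1 libraries.

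All 8 libraries came from sorted spleen cells of C57BL/6 mice and carried the same Irf8 alleles, so no difference between these 8 libraries is one of genotype. Other comparisons from the series are set beside it, each with 2 libraries per group. Hybrid cells and cDC1 of Irf8 +32H/+ mice (H/+, with 1 copy of the allele) and cDC2 and cDC1 of wild type (WT) mice came from experiment 1. Hybrid cells and cDC1 of Irf8 +32H/H Nfil3-/- mice, which lack Nfil3 besides carrying both +32H copies, came from experiment 2. The labels call replicates biological duplicates without naming the animals, so p-values measure the spread between these libraries. The sources used here give neither the animals' age, nor whether animals were pooled, nor the markers used for sorting.

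Conventional dendritic cells take up antigen and present it to T cells. As background, cDC1 depend on the transcription factors IRF8, BATF3 and ID2, carry XCR1 and CLEC9A, and are known for presenting antigen from dead cells to CD8 T cells. In mouse spleen cDC2 depend on IRF4 and ZEB2, carry SIRPα and CD11b, and are known for presenting antigen to CD4 T cells. NFIL3 represses Zeb2 in the progenitor, and ZEB2 in turn counteracts the cDC1 fate, so that the lineages normally exclude each other.

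The libraries held 17.54 to 30.7 M estimated counts, with 1.15% to 1.89% from mitochondrially encoded genes. Both replicate 2 libraries of experiment 1 held Xist, the transcript of the inactive X chromosome (156 and 197 CPM), whereas the other 6 held at most 0.0552 CPM. CPM are counts per M of the library after scaling by the trimmed mean of M values (TMM). They are not per length and are compared only within a gene. In bulk samples, fewer cells of a type and less RNA per cell cannot be told apart.

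Most cDC2 marker genes were higher in hybrid cells than in cDC1 and most cDC1 marker genes were lower, the latter by less. Zeb2, Sirpa and Itgam were higher in all 4 hybrid libraries than in any cDC1 library, and Cd8a was lower in all 4. The sorting gates are not known here, so these 4 genes are a check of the labels and not a finding. Zeb2 (ENSMUSG00000026872, chromosome 2, 44983632 to 45117395 in GRCm38, as annotated by GENCODE), the zinc finger repressor, stood at 44.0 and 35.8 CPM in hybrid cells of experiment 1 and at 38.3 and 45.9 in those of experiment 2. In cDC1 it stood at 5.95 and 3.74 and at 7.12 and 6.54 CPM, a difference of 2.85 on the log2 scale (SE 0.148, edgeR adjusted p = 2.24e-10).

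Sirpa, the CD47 receptor SIRPα, stood at 102, 91.2, 177 and 184 CPM in hybrid cells against 8.28, 4.87, 21.7 and 22.8 in cDC1, with the libraries of experiment 1 given first (log2 3.44, SE 0.231, edgeR adjusted p = 2.51e-05). Both cell types held more Sirpa in experiment 2, and the groups did not overlap in either. Itgam, the CD11b chain, stood at 38.8, 37.0, 63.0 and 51.3 against 5.20, 5.14, 10.8 and 8.86 CPM (log2 2.72). Cd8a stood at 14.3, 14.9, 5.17 and 6.34 against 119, 136, 79.1 and 92.9 CPM (log2 -3.45, SE 0.154, edgeR adjusted p = 3.20e-10), 10.9-fold lower in hybrid cells. In H/H cDC2 of experiment 1, given side by side with no test, Cd8a stood at 24.2 ± 0.943 CPM (SD, n = 2), above each of the 4 hybrid libraries.

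**Figure D1:**
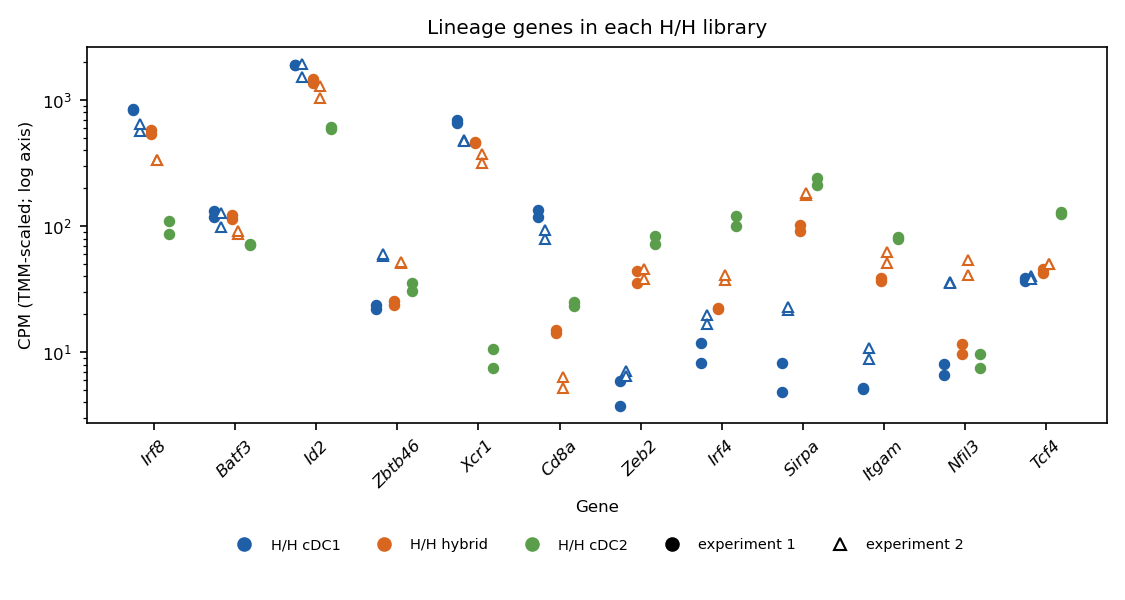
Level of 12 lineage genes in each H/H library, in TMM-scaled CPM on a log axis, with filled circles for experiment 1 and open triangles for experiment 2. Cells labelled hybrid (orange) lie near cDC1 (blue) for Batf3, Id2 and Xcr1 and far from it for Zeb2, Sirpa, Itgam and Cd8a, and H/H cDC2 (green) was measured in experiment 1 only.

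The list of dendritic cell transcription factors, which also holds the receptor Notch2, had 27 tested members. Of these, 11 were higher in hybrid cells, 5 were lower and 11 did not pass. The test called 22.6% of all 14651 genes tested (12.8% higher and 9.81% lower). The median log2 difference of the 27 was 0.24, against 0.01 over all genes. The 5 that fell were Irf8, Id2, Mycl, Rbpj and the receptor Notch2. Irf8 stood at 540, 578, 333 and 338 CPM in hybrid cells against 849, 841, 568 and 645 in cDC1 (log2 -0.70, SE 0.0831, edgeR adjusted p = 2.00e-06). Within each experiment both hybrid libraries were lower, although the lowest cDC1 library of experiment 2 lay below the highest hybrid library of experiment 1.

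Batf3, the partner of IRF8 in cDC1, stood at 124, 114, 87.3 and 91.2 CPM against 133, 117, 99.4 and 127, and the groups overlapped (log2 -0.19, 95% interval -0.39 to 0.01, edgeR adjusted p = 0.175). Id2, the inhibitor of E proteins, was 1.39-fold lower, and Mycl was also lower (log2 -0.57). Zbtb46, a factor of all conventional dendritic cells, differed by -0.03 (95% interval -0.23 to 0.18). Its level was higher in experiment 2 in both cell types, at 51.0 to 60.0 CPM against 22.1 to 25.4 CPM in experiment 1.

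Among factors of cDC2, Irf4 stood at 22.1, 22.4, 37.7 and 41.0 CPM in hybrid cells against 11.8, 8.29, 19.8 and 16.9 in cDC1, a 2.21-fold rise (SE 0.114 on the log2 scale, edgeR adjusted p = 1.99e-07). Every hybrid library was higher than every cDC1 library. H/H cDC2 of experiment 1 held 111 ± 14.6 CPM of Irf4 (SD, n = 2), and the hybrid mean in that experiment was 22.3. Klf4 (log2 0.78), Bhlhe40 (0.94) and Runx3 (0.49) also rose. Prdm1, which encodes the repressor BLIMP-1, stood at 21.8, 19.3, 33.4 and 33.7 CPM against 6.19, 5.33, 12.4 and 9.52 (log2 1.74), and at 8.80 ± 0.337 in H/H cDC2.

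Nfil3, the repressor of Zeb2, was 1.40-fold higher in hybrid cells (log2 0.49, SE 0.112, edgeR adjusted p = 0.00319), at 11.6, 9.73, 41.2 and 54.1 CPM against 6.65, 8.02, 36.4 and 35.6. Its level was several times higher in experiment 2 in both cell types, and the pooled groups overlapped. Neither experiment alone called it (edgeR adjusted p = 0.302 in experiment 1 and 0.0993 in experiment 2). Tcf4, an E protein of plasmacytoid cells and cDC2, rose slightly (log2 0.31, edgeR adjusted p = 0.0163). The Nfil3 call was lost with all 28 libraries in the fit, and the Tcf4 call was lost without hybrid replicate 1 of experiment 1 (0.30) and without cDC1 replicate 2 (0.25), hybrid replicate 2 (0.27) or hybrid replicate 1 (0.27) of experiment 2. Without cDC1 replicate 2 or hybrid replicate 2 of experiment 2, 7 of the factors rose in place of 11.

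Of 26 cDC1 markers 23 were lower in hybrid cells, none was higher and 3 did not pass (Batf3, Cadm1 and Cd207), with a median log2 difference of -0.89. Most of these falls were small beside the distance between the WT lineages, where the median of the same genes was -5.54. Cd8a, read above only as a check of the labels, is among the 23. The chemokine receptor Xcr1 stood at 455, 469, 373 and 320 CPM in hybrid cells against 666, 701, 480 and 478 in cDC1 (log2 -0.50, SE 0.0776, edgeR adjusted p = 6.51e-05). The groups did not overlap, and H/H cDC2 held 9.06 ± 2.13 CPM (SD, n = 2). Clec9a, the receptor for exposed actin of dead cells, was at 162 against 194 CPM on average (log2 -0.24), and Wdfy4, required for cross-presentation, at 555 against 755. Rab7b (590 against 824 CPM) and Naaa (657 against 1196 CPM) fell as well.

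Cadm1, an adhesion molecule used as a cDC1 marker, stood at 253, 218, 234 and 220 CPM in hybrid cells against 240, 169, 270 and 232 in cDC1. These groups overlapped (log2 0.05, 95% interval -0.20 to 0.30, edgeR adjusted p = 0.81), while H/H cDC2 held 15.3 ± 2.94 CPM (SD, n = 2).

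A few cDC1 genes fell much further. The largest falls by the naming rule included Cd8a, Gcsam, Cd24a, Dbn1, Clnk, Ttc39a, Septin3, Ahnak, Dkk3, Plcb4 and Fgd6, and the rule required that the groups did not overlap. Cd24a, a glycosylated surface protein of cDC1, was 5.98-fold lower, at 16 to 22.5 against 111 to 135 CPM, and H/H cDC2 held 27.3 ± 2.00.

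Gcsam stood at 39.9, 46.6, 20.9 and 18.2 CPM against 263, 253, 150 and 168 (6.82-fold lower), and H/H cDC2 held 0.280 ± 0.0148. Hybrid cells thus lay below H/H cDC2 of experiment 1 for Cd8a and Cd24a and far above them for Gcsam. Dbn1, an actin-binding protein, was 5.48-fold lower, at 11.7, 10.6, 3.77 and 6.79 against 51.0, 48.3, 32.1 and 45.4 CPM. Clnk, an adaptor of immune receptor signalling, was 5.14-fold lower, Septin3 4.07-fold, and Plcb4, a phospholipase C, 2.81-fold. Tlr3, the endosomal sensor of double-stranded RNA, was 2.78-fold lower, at 19.1 to 46.4 against 60.2 to 107 CPM.

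**Figure D2:**
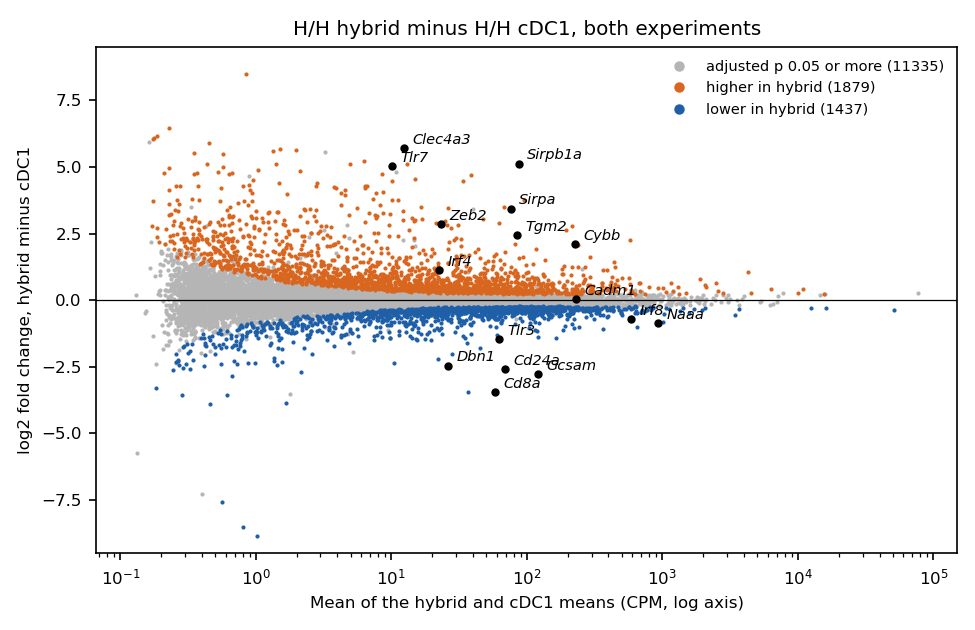
Log2 difference between H/H hybrid cells and H/H cDC1 over both experiments for each gene tested, against the mean level in CPM on a log axis. Orange points are the 1879 genes higher in hybrid cells, blue points the 1437 lower and grey points those that did not pass an adjusted p of 0.05; among the genes labelled in black, Clec4a3, Sirpb1a and Tlr7 lie highest and Cd8a and Gcsam lowest.

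Of 26 cDC2 markers 25 were higher in hybrid cells and none was lower, with a median log2 difference of 2.52. The same genes had a median of 5.83 between WT cDC2 and WT cDC1. Zeb2, Sirpa and Itgam, read above only as a check of the labels, are among the 25. The member that did not pass was the lectin Clec12a (log2 0.08, 95% interval -0.09 to 0.24), which was lower in WT cDC2 than in WT cDC1 (log2 -1.68) and so goes against its place on the list. Cd4 stood at 293, 287, 371 and 390 CPM in hybrid cells against 44.3, 36.4, 64.0 and 83.8 in cDC1, a rise of 6.16-fold. Its mean in H/H cDC2 of experiment 1 was 216 ± 36.7 CPM (SD, n = 2). Esam, an adhesion molecule of Notch-dependent cDC2, rose 2.03-fold. Dtx1, a Notch target, stood at 8.95, 5.81, 7.81 and 9.21 against 0.142, 0.195, 0.859 and 0.979 CPM, and at 133 ± 2.47 CPM in H/H cDC2.

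The 12 largest rises by the naming rule were in Clec4a3, Clec4a4, Sirpb1a, Sirpb1c, Tlr7, Pltp, Clec4a1, Sirpb1b, Fcgr3, C1qb, Pilra and Csf3r, 19.4- to 52.0-fold. Many are receptors of myeloid cells. Clec4a3, a lectin of the DCIR group, stood at 29.7, 27.6, 21.5 and 18.8 CPM in hybrid cells against 0.531, 0.740, 0.354 and 0.267 in cDC1 (log2 5.70, SE 0.172, edgeR adjusted p = 2.64e-15). Clec4a4, known as DCIR2 and a marker of splenic cDC2, stood at 14.4, 14.4, 11.2 and 8.83 against 0.177, 0.195, 0.657 and 0.356 CPM (37.4-fold), and H/H cDC2 held 122 ± 0.908 (SD, n = 2). Clec4a1 reached 67.6 to 81.7 against 2.69 to 3.13 CPM.

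These lectins lie together on GRCm38 chromosome 6. In genome order from Clec4a1 (122921848 to 122934619) to Clec4e (123281789 to 123289870), 9 genes named Clec4 were tested. In hybrid cells 8 of them rose, by 2.09 (Clec4b1) to 5.70 (Clec4a3) on the log2 scale, of which Clec4d and Clec4e stayed below 1 CPM on average. Clec4b2, between Clec4a2 and Clec4n, is a cDC1 gene in WT mice (log2 -7.89 for cDC2 minus cDC1). In hybrid cells it stood at 34.7, 49.5, 36.7 and 33.4 CPM against 35.8, 36.9, 40.1 and 36.9 in cDC1 (log2 0.06, 95% interval -0.18 to 0.30, edgeR adjusted p = 0.754). H/H cDC2 held 0.211 ± 0.204 CPM. The locus was looked at after these values had been seen.

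Among 27 tested C-type lectin receptors 18 rose and 2 fell (Clec9a and Ly75), with a median of 2.11. The count lower was 1 without any 1 library of experiment 1 or without either hybrid library of experiment 2. Clec7a, known as Dectin-1, was at 374 against 56.4 CPM on average (log2 2.79), Clec4n, known as Dectin-2, at 15.7 against 1.61 and Cd209a at 947 against 213. Clec1b, chosen after its values were seen, was at 84.2 against 10.6 CPM (log2 3.06), although WT cDC2 and WT cDC1 did not differ past the threshold (log2 0.24), and H/H cDC2 held 4.30.

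Of the 22 SIRP, CD300, PILR and related paired receptors, 19 rose, Sirpa among them, and none fell (median 1.94). Sirpb1a stood at 193, 138, 164 and 185 CPM in hybrid cells against 5.70, 2.73, 4.65 and 6.81 in cDC1 (34.8-fold), and H/H cDC2 held 311 ± 16.5 (SD, n = 2). Sirpb1b and Sirpb1c rose 23.3- and 34.1-fold. Sirpb1a (chromosome 3, 15371653 to 15426520), Sirpb1b (15495751 to 15575065) and Sirpb1c (15795145 to 15848528) are close copies, so the split of reads between them is uncertain, as it is for Pilrb1 and Pilrb2 and within the Cd209 and Clec4a groups. The signalling chains rose too, Fcer1g (the common γ chain of Fc receptors) from 84.9 to 111 in cDC1 to 371 to 393 CPM in hybrid cells, and Tyrobp (DAP12) by 0.82 on the log2 scale. Cd47, the ligand of SIRPα, differed by 0.07 (edgeR adjusted p = 0.632).

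Of 12 Fc and complement receptors 11 rose, Itgam among them. Fcgr3, an activating receptor for IgG, stood at 22.9, 17.9, 20.2 and 16.1 CPM against 1.24, 0.856, 0.859 and 0.534 (22.2-fold, edgeR adjusted p = 2.59e-13). Fcgr4 rose 4.93-fold and the inhibitory Fcgr2b by 0.81 on the log2 scale. In the NADPH oxidase, which makes superoxide, Cybb, the catalytic chain, stood at 331, 340, 413 and 367 CPM against 62.9, 70.6, 114 and 101 (4.33-fold, edgeR adjusted p = 7.98e-12). The small GTPase Rac2, which works with it, rose by 0.35 on the log2 scale, whereas Cyba, Ncf1 and Ncf4 did not pass (log2 -0.01 to 0.23).

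Of 20 tested Toll-like receptors and adaptors 9 rose and 3 fell. Tlr7, the endosomal sensor of single-stranded RNA, stood at 15.5, 13.6, 28.2 and 20.7 CPM against 0.354, 0.273, 1.21 and 0.712 in cDC1 (32.5-fold, edgeR adjusted p = 4.22e-13). Tlr1 rose by 1.68 on the log2 scale. Tlr5, which senses flagellin, and Tlr8 passed the test at low levels, with means of 1.22 and 1.12 CPM in hybrid cells and of 0.0438 and 0.0288 CPM in cDC1, under the level of 3 counts (0.104 to 0.165 CPM). The members that fell were Tlr3, Tlr11 and Tlr12, and all 3 were also lower in WT cDC2 than in WT cDC1. The adaptor Myd88 (log2 0.05) and the chaperone Unc93b1 (0.18) did not pass.

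Of 20 growth factor and cytokine receptors 11 rose and 1 fell. Csf1r, the receptor of the macrophage factor M-CSF, stood at 146, 122, 116 and 117 CPM against 13.9, 10.5, 9.75 and 11.2 (11.2-fold, edgeR adjusted p = 4.95e-15). Csf3r, the receptor of G-CSF, rose 19.4-fold to 9.35 to 13.9 CPM. Flt3, the receptor of the main dendritic cell growth factor, was the member that fell (276 against 385 CPM, log2 -0.47), and Kit differed by 0.04 (95% interval -0.13 to 0.21). Among 15 chemokine receptors 8 rose, with Cx3cr1 5.37-fold, and 4 fell, with Xcr1, Cxcr3 (log2 -1.44) and Ccr9 (2.46-fold). Ccr7, which guides mature cells to lymph nodes, differed by 0.03.

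Genes for the uptake of dead cells were mostly higher, 14 of 20 tested (median log2 1.38), with 3 lower (Clec9a, Cd36 and Timd4). The summed level of the list overlapped, at 1731 to 1951 CPM in hybrid cells and 1783 to 1895 in cDC1. Cd36, an abundant member, stood at 546 against 721 CPM on average. The receptor Axl stood at 30.3, 34.9, 32.8 and 22.4 CPM against 4.32, 3.19, 2.98 and 4.18 (8.28-fold), and Lrp1 rose 6.28-fold. Tgm2, a transglutaminase, stood at 118, 109, 184 and 162 against 20.3, 20.0, 34.7 and 31.9 CPM (5.49-fold, edgeR adjusted p = 4.72e-14). The complement chain C1qb stood at 81.3, 73.9, 63.0 and 41.5 CPM against 6.41, 2.61, 1.82 and 1.51 (22.1-fold, edgeR adjusted p = 0.000315), with C1qa and C1qc at 18.4- and 17.5-fold.

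C1q, Csf1r, Adgre1, Cd14, Lyz2 and Cd5l are also genes of monocytes and macrophages, and 16 of 18 markers of these cells were higher in hybrid cells (median log2 2.56). Their summed level was 2886 to 3416 CPM in hybrid cells and 1722 to 2049 CPM in cDC1. H/H cDC2 of experiment 1 held C1qb at 91.1 ± 27.6 (SD, n = 2), Csf1r at 240 ± 22.6 and Adgre1 (F4/80) at 270 ± 51.0 CPM. Each of these means lay above all hybrid libraries. The H/H cDC2 means of Fcgr4 (16.8 CPM) and Cd14 (37.8 CPM) lay below all of them (44.8 to 58.2 and 52.0 to 98.8 CPM). Cd14 and Lyz2 did not differ past the threshold between WT cDC2 and WT cDC1 (log2 0.43 and 0.72). No marker of the list was at 0 in any hybrid or cDC1 library. Ly6c2 (3.20 against 4.36 CPM) and Spic, a factor of red pulp macrophages (41.9 against 27.5 CPM), did not pass. The part of other cells in these rises was not tested.

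Markers of further cell types were also read. Of 11 neutrophil markers 4 were tested and all rose, to a summed 13.8 to 20.4 CPM against 0.662 to 1.42, most of it Csf3r, and S100a8 reached 1.08 to 2.23 CPM. Erythroid transcripts summed to 22.0 to 140.5 CPM in hybrid cells and 9.497 to 36.9 CPM in cDC1, ranges that overlap, and 1 of the 5 tested passed, Alas2. That count was 0 without hybrid replicate 1 of experiment 2, 2 without its hybrid replicate 2, 3 with a replicate block and 5 with DESeq2. T cell markers were at a summed 15.1 to 20.3 against 15.0 to 24.6 CPM, with 3 of 8 lower. That count was 0 without either hybrid library or cDC1 replicate 2 of experiment 1, and 1 without cDC1 replicate 2 or hybrid replicate 1 of experiment 2. Of the NK cell markers 2 were tested and both fell, Nkg7 and Klrk1 (67.0 against 175 CPM). Without hybrid replicate 2 or cDC1 replicate 1 of experiment 1, or hybrid replicate 1 of experiment 2, 1 fell.

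For B cells 3 of 6 tested were higher (Cd79a, Cd79b and Cd22). The sum of the list was 558.7 to 714 CPM in hybrid cells and 538 to 658.6 in cDC1, most of it Ighm and Ms4a1, while Ebf1 and Pax5 were at most 0.319 CPM. Of 8 plasmacytoid markers tested 3 rose (Tcf4, Runx2 and Lag3) and 1 fell (Ccr9), and Siglech was at most 1.12 CPM. Neither of the 2 platelet markers tested passed. The part of any of these cells in the results was not tested.

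**Figure D3:**
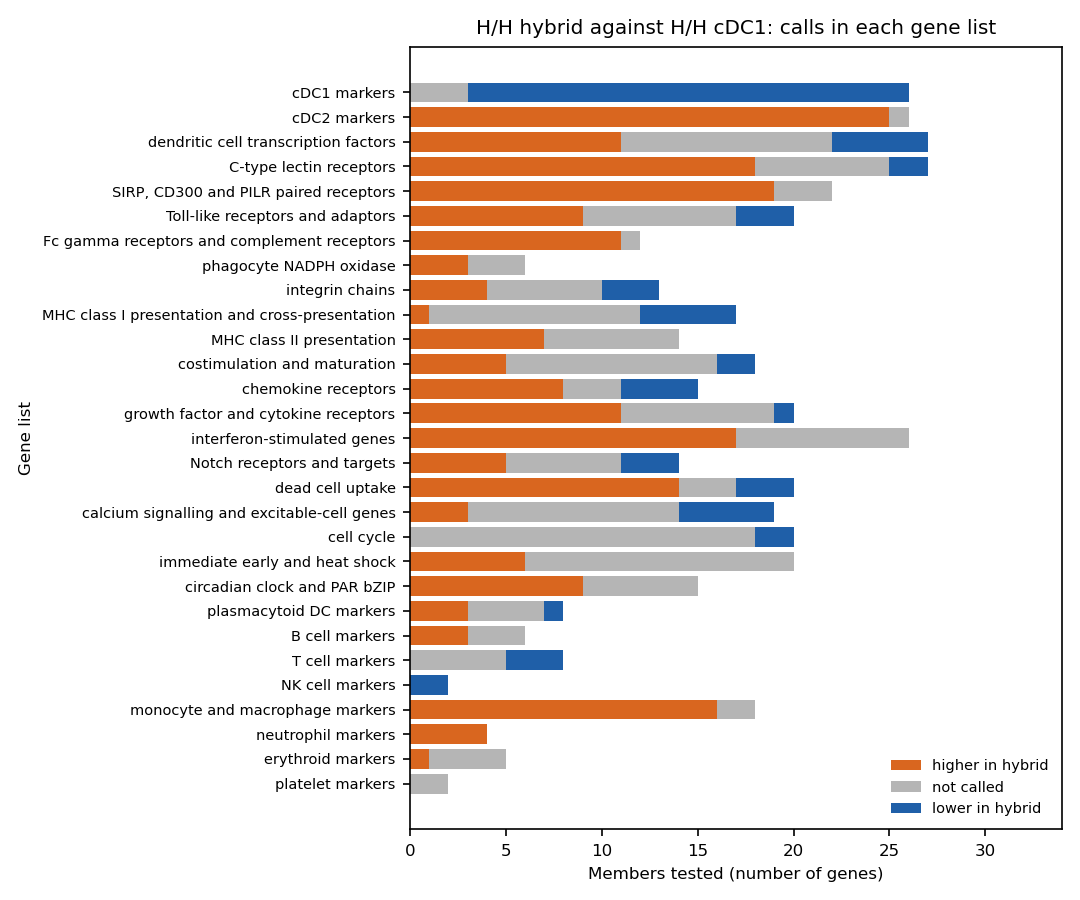
Number of tested members of each gene list that were higher in H/H hybrid cells (orange), lower (blue) or not called (grey) at an adjusted p of 0.05. The lists of cDC2 markers, paired receptors, Fc receptors and monocyte and macrophage markers are mostly orange, the list of cDC1 markers is mostly blue (23 of 26), and the cell cycle list is mostly grey (18 of 20).

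Antigen presentation genes changed little next to these receptors. Of 17 genes of MHC class I presentation, 1 rose and 5 fell, with a median of -0.12. Over all genes tested, 12.8% were called higher and 9.81% lower. H2-K1 rose 1.49-fold, while the chaperones Calr, Canx and Pdia3 fell (log2 -0.53 to -0.36), and Tap1 and Tap2 did not pass. Without cDC1 replicate 2 of experiment 2 there were 2 rises. Of 14 MHC class II genes 7 rose and none fell, by at most 1.11 (H2-Eb2). Among costimulatory genes Cd274, which encodes PD-L1, rose 2.07-fold, at 120, 110, 180 and 142 against 60.7, 52.7, 77.8 and 78.4 CPM. Cd86 differed by -0.04 and Cd83 by -0.02. Of 18 such genes 5 rose, or 3 without hybrid replicate 1 of experiment 2, and 2 fell. Of 20 cell cycle genes 2 fell (Ccnb2 and Mcm6), near the share of all genes tested, and Mki67 differed by -0.03. Without cDC1 replicate 1 of experiment 1 or cDC1 replicate 1 of experiment 2, 5 fell, and with a replicate block 6 fell.

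The lists that follow are read beside the 12.8% of all genes tested that were called higher and the 9.81% called lower. Among Notch receptors and targets 5 of 14 rose, with Hes1 (log2 0.69), and 3 fell, with Notch2 (-0.37) and Rbpj (-0.30). Of 15 genes on a list of clock genes and bZIP transcription factors 9 rose, with Per1 (0.78) and Nfil3, and none fell. Experiment 1 alone called 3 of them higher and experiment 2 alone 2. Of 20 immediate early and heat shock genes 6 rose, or 11 with a replicate block. Of 13 integrin chains 4 rose, with Itgax (CD11c, 0.55), and 3 fell, with Itgb7 (-0.48), or 1 without cDC1 replicate 1 of experiment 1.

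Of 26 interferon-stimulated genes 17 were higher in hybrid cells and none was lower, with a median of 0.51. Rtp4, a chaperone of receptors, stood at 39.3, 52.4, 32.5 and 26.4 CPM in hybrid cells against 4.07, 6.38, 6.11 and 3.87 in cDC1 (7.41-fold, edgeR adjusted p = 3.21e-06). Oas2, which makes 2-5A to activate RNase L, rose 7.09-fold, Ddx58, the RNA sensor RIG-I, 3.70-fold and Ifit3b 3.44-fold. Other members showed no difference past the threshold, among them Irf7 (log2 0.19), Mx1 (0.00) and Bst2 (0.02). The genes that rose were also higher in WT cDC2 than in WT cDC1, by 7.38 for Rtp4, 6.74 for Oas2, 5.48 for Ddx58 and 6.92 for Ifit3b, and Irf7 was not (-0.42). Isg20 (2.36) and Usp18 (1.25) were also higher in WT cDC2 but did not pass in hybrid cells (log2 0.29 and 0.23). Ifit3 and Ifit3b are close copies, and the split of reads between them is uncertain.

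Promoters of the genes that changed at least 2-fold (910 genes, 6.21% of those tested, with 4.83% higher and 1.38% lower) were searched, on both strands, for motifs of factors named above. RefSeq gives a promoter (250 bases before to 50 after the start, GRCm38.p6) for 9985 of 14635 tested genes with a symbol, and the first listed was used. The ISRE motif (GAAA, any 2 bases and GAAA again), bound by IRF proteins, was in 9.79% of the 470 promoters of genes at least 2-fold higher in hybrid cells, in 2.26% of the 133 of genes at least 2-fold lower and in 3.43% of all tested. The E-box CAGGTG, bound by ZEB2 and by E proteins, was in 32.3% of the promoters of genes at least 2-fold lower, in 18.3% of those higher and in 16.9% of all tested. With no fold limit, the E-box was in 16.8% of the 1096 promoters of genes called lower and in 16.6% of those not called. The ISRE was then in 6.33% of the 1343 promoters of genes called higher. The higher E-box share was thus seen only in the 2-fold set. EICE (GGAA, any 2 bases and GAAA, for IRF with PU.1) was in 3.83%, 3.76% and 2.61% of genes higher, lower and tested, and AP-1 (TGANTCA) in 9.15%, 12.0% and 4.92%. Over all 27025 promoters in the table the shares were 3.49% for ISRE, 20.0% for the E-box, 2.79% for EICE and 7.93% for AP-1. EICE and ISRE matches overlapped in 32 of them. These shares were not tested, and a match is not a site.

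The promoters of 5 genes, chosen by hand, are printed 5′ to 3′ on the gene's strand. Motif matches are in capitals, and matches on the other strand are shown in reverse complement. All 5 hold a match, so they do not show how common matches are among genes that changed. Cd8a, with one of the largest falls, holds 2 EICE matches. Dbn1, which also fell, holds the E-box. Cybb, Ifit3b and Sirpb1b rose, and each holds at least 1 ISRE match. The Cybb promoter has 3 ISRE, 1 EICE and 1 AP-1 match, and that of Ifit3b has 2 ISRE and 1 AP-1.
Cd8a (chr6:71373177-71373476, plus strand): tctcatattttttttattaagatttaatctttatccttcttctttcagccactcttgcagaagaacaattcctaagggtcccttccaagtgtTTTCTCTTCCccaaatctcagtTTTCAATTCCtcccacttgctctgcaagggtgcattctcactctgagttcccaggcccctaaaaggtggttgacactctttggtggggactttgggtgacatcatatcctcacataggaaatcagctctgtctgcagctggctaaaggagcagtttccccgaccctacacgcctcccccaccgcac
Dbn1 (chr13:55488027-55488326, minus strand): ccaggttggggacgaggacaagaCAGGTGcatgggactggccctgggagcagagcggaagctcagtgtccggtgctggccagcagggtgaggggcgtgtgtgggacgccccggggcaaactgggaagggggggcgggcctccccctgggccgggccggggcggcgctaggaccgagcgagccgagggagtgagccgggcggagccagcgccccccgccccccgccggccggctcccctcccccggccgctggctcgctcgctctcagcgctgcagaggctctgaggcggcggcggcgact
Cybb (chrX:9469275-9469574, minus strand): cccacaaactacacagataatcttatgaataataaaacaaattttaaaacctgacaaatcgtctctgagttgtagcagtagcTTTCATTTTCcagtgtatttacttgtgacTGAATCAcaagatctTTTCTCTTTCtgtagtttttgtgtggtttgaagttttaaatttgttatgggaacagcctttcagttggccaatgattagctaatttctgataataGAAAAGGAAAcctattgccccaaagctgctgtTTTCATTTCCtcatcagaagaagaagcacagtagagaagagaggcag
Ifit3b (chr19:34607707-34608006, plus strand): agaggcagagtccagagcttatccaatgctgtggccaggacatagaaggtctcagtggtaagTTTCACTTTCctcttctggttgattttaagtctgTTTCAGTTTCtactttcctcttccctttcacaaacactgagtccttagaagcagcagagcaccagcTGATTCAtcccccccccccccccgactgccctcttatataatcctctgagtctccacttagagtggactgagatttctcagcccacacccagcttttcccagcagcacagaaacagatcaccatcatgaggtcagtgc
Sirpb1b (chr3:15575016-15575315, minus strand): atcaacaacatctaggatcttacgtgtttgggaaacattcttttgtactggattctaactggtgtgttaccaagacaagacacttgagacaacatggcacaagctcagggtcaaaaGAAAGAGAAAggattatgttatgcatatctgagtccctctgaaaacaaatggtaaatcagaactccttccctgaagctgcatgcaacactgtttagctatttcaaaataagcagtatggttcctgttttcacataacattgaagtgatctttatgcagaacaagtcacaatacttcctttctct

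The experiments were also tested one at a time. Experiment 1 alone called 1259 of 16036 genes (7.85%, with 5.24% higher and 2.61% lower) and experiment 2 alone 1811 of 14504 (12.5%, with 7.24% higher and 5.25% lower). Of the genes tested in both, 580 were higher in both and 242 lower in both, which is 66.7% of the calls of experiment 1 and 45.4% of those of experiment 2, and none was called in opposite directions. Of 3276 pooled calls tested in both, 1272 passed in neither experiment alone. Across 14347 genes, which are not independent replicates, Pearson's r of the log2 differences was 0.649 and Spearman's rho 0.595.

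Cd8a was lower by -3.10 in experiment 1 and -3.89 in experiment 2, and Csf1r was higher by 3.48 in both. Sirpa was higher by 3.90 and 3.03, and Dtx1 by 5.46 and 3.21. The difference between the experiments was tested itself, and edgeR called 0 of 14651 genes (0%), with 752 at an unadjusted p below 0.05, 5.13% of those tested. DESeq2 called 2 with 460 unadjusted, and a replicate block called 8. The count was 1 without hybrid replicate 2 of experiment 1, 5 without cDC1 replicate 2, 3 without cDC1 replicate 1 and 1 without hybrid replicate 2 of experiment 2.

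The pooled count of 3316 was 2380 to 3351 without any 1 library and 3324 with a term for the libraries with Xist, and the groups of 4 did not overlap for 1810 of the calls (54.6%), against 14.5% of all genes tested (7.96% with hybrid libraries above and 6.51% with them below). The counts within an experiment moved more. That of experiment 1 was 647 and 623 without hybrid replicate 2 or 1, 568 and 765 without cDC1 replicate 2 or 1, 1772 with only its 4 libraries in the fit and 2378 with a replicate block on those 4. That of experiment 2 was 693 and 850 without hybrid replicate 2 or 1, 1158 and 1154 without cDC1 replicate 2 or 1, 1644 with only its 4 libraries and 2545 with a replicate block on those 4.

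**Figure D4:**
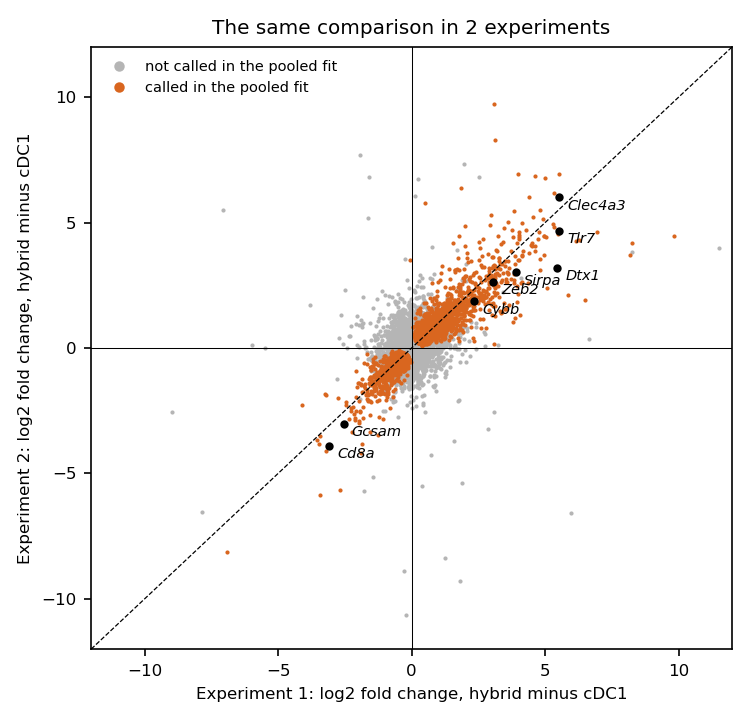
Log2 difference between H/H hybrid cells and H/H cDC1 in experiment 1 (x axis) and experiment 2 (y axis), with 1 point per gene, genes called in the pooled fit in orange and the dashed line marking equal differences. The pooled fit chose the orange genes from both experiments, so their shared sign is no separate result, and Dtx1 lies below the line (5.46 against 3.21).

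To set the H/H comparison beside the normal lineage difference, WT cDC2 was compared with WT cDC1. In experiment 1, WT cDC2 and WT cDC1, none of which are among the 8 libraries, differed in 7050 of 16036 genes (44.0%, with 23.4% higher in cDC2 and 20.5% lower). Of 962 genes at least 4-fold higher in WT cDC2, 665 (69.1%) were higher in H/H hybrid cells than in H/H cDC1 and 2 were lower. Of 472 genes at least 4-fold higher in WT cDC1, 263 (55.7%) were lower in hybrid cells and 3 were higher. Of 7951 genes not called in WT, 408 were higher in hybrid cells and 299 lower. Over all genes tested, 12.8% were higher and 9.81% lower. The median differences were 1.16 in hybrid cells against 3.30 in WT for the cDC2 genes, and -0.63 against -2.99 for the cDC1 genes. The 4-fold limit chose these genes on their WT difference, so the WT medians are large in part by that choice. Each difference is within 1 genotype, so these values do not place hybrid cells against WT cDC1.

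Of the 1876 genes higher in hybrid cells that WT libraries tested, 1423 (75.9%) were also higher in WT cDC2, 45 were lower and 408 did not pass. Of 1436 genes lower in hybrid cells, 1103 (76.8%) were lower in WT cDC2, 34 were higher and 299 did not pass. Among genes that went against the lineage difference, Apol10b stood at 100, 119, 107 and 98.2 CPM in hybrid cells against 60.3, 43.5, 66.7 and 60.5 in cDC1 (log2 0.90), although it was lower in WT cDC2 (log2 -1.50) and H/H cDC2 held 5.97 ± 0.332 (SD, n = 2). Ocstamp, a membrane protein of osteoclast fusion, stood at 409, 374, 276 and 307 against 210, 190, 173 and 216 CPM (log2 0.80), against -2.92 in WT. Tnfsf13b, the B cell survival factor BAFF, rose 1.80-fold, and Vwf, von Willebrand factor, 1.81-fold. Septin1 fell by 0.80 on the log2 scale, and was higher in WT cDC2 (0.67).

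Some cDC2 genes rose from near 0 and stayed far below cDC2. Ryr3, a calcium release channel, stood at 3.74, 2.54, 2.10 and 2.21 CPM in hybrid cells and at most 0.0779 in cDC1, and H/H cDC2 held 84.8 ± 10.1 (SD, n = 2). Its fold is uncertain, since the 4 cDC1 libraries are at or near 0. Cdhr3, a cadherin, reached 0.800 to 1.18 CPM, against 18.6 ± 2.36 in H/H cDC2.

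**Figure D5:**
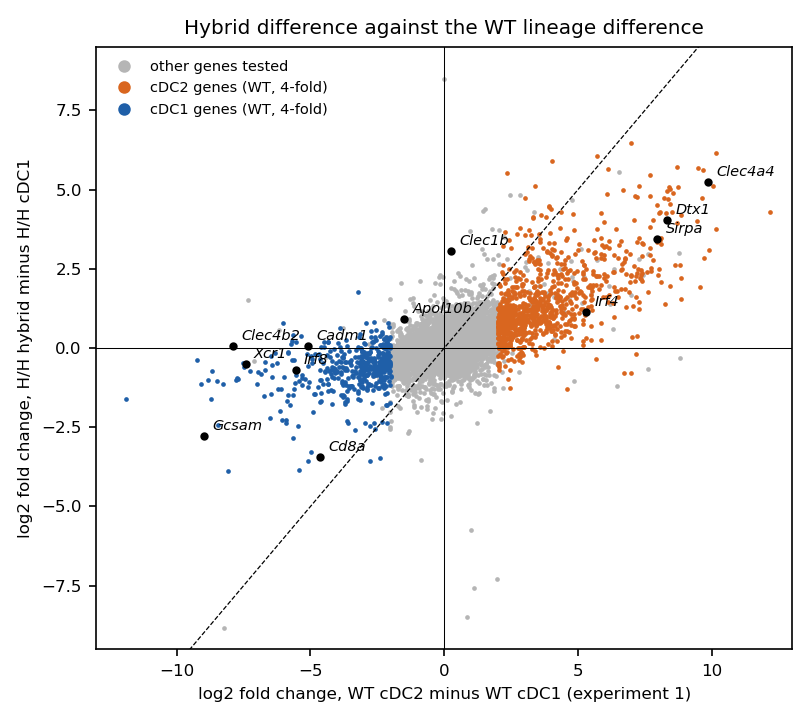
Log2 difference between H/H hybrid cells and H/H cDC1 (y axis) against that between WT cDC2 and WT cDC1 (x axis), with genes at least 4-fold higher in WT cDC2 in orange, those at least 4-fold higher in WT cDC1 in blue and equal differences on the dashed line. Most orange points lie above 0 (665 of 962 called higher) and below the line, and many blue points lie near 0, among them Cadm1 and Clec4b2.

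In H/+ mice hybrid cells differed from cDC1 in 2639 of 16036 genes (16.5%, with 9.77% higher and 6.68% lower). The H/H and H/+ differences, which share no library, were compared in 1 test, which called 64 genes (0.399%, with 0.0374% in favour of H/H and 0.362% the other way), 58 of them with a smaller rise or larger fall in H/H mice. For 58 of the 64 the mean in H/H cDC1 was above that in H/+ cDC1. These cDC1 levels enter the test that chose the 64 genes, so this count is no separate result. Sirpa stood at 119 CPM in H/+ hybrid cells against 2.24 in H/+ cDC1, and at 96.7 against 6.57 CPM in H/H cells of the same experiment, a difference of -1.84 between the log2 differences (edgeR adjusted p = 0.00631). Cybb stood at 414 against 19.7 CPM in H/+ and at 335 against 66.7 in H/H cells (-2.05, edgeR adjusted p = 0.000406). The same test gave -2.09 for Itgam and -1.14 for Fcer1g. Zeb2 gave -1.35 and Irf4 -1.42, and neither passed (edgeR adjusted p = 0.354 and 0.212). Both passed with DESeq2 (DESeq2 adjusted p = 0.0166 and 0.0032), with no filter and with a replicate block.

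Irf8 was among the 6 genes with a difference in the other direction, at 398 against 1163 CPM in H/+ and 559 against 845 CPM in H/H cells, so the fall was smaller in H/H (0.96, edgeR adjusted p = 0.032). Cd8a fell by 3.10 on the log2 scale in H/+ and by 3.10 in H/H cells (difference 0.01, edgeR adjusted p = 1), from 267 and 127 CPM in cDC1. The count of 64 was 29 and 33 without H/H hybrid replicate 2 or 1, 24 and 37 without H/H cDC1 replicate 2 or 1, 32 without H/+ hybrid replicate 2 and 132 with a replicate block. The Irf8 call was lost without any of 7 of the 8 libraries (0.88 to 1.01), and that for Itgam without H/H hybrid replicate 2 (-2.05) or H/H cDC1 replicate 2 (-2.09).

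Without Nfil3, hybrid cells differed from cDC1 in 766 of 14504 genes (5.28%, with 4.02% higher and 1.26% lower). The test of the difference from Nfil3-intact H/H cells called 1 gene (0.00689%), with 510 at an unadjusted p below 0.05, and DESeq2 called 7 with 369 unadjusted. That gene was Tgm2, at 215 ± 12.4 CPM in Nfil3-/- hybrid cells and 95.7 ± 0.424 in Nfil3-/- cDC1 (SD, n = 2), against 173 and 33.3 in H/H cells of the same experiment (difference -1.22, SE 0.167, edgeR adjusted p = 0.0245). Zeb2 rose by 2.27 without Nfil3, and the difference from the H/H value was -0.36 (edgeR adjusted p = 1). The Tgm2 call was lost with a replicate block, without either H/H hybrid library, without H/H cDC1 replicate 2 and without any 1 of the 4 Nfil3-/- libraries (-1.30 to -1.12), and without H/H cDC1 replicate 1 the count was 2.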

How the data were processed

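Bulk RNA-seq of sorted spleen cells was deposited as 1 table of estimated counts per gene for each experiment. The authors' expected counts are not whole for 10.8% and 10.2% of values, per the deposited files. The submitters' processing notes name bcl2fastq, DRAGEN and edgeR, with no role or version; the genome build is not given in the sources used here. Of the gene IDs 99.5% are in GENCODE mouse release 21 (GRCm38), from which coordinates were taken. Each file has 55774 lines, of which 287 repeat a gene ID, which leaves 55487 genes.

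Counts were rounded and tested with edgeR 4.0.16 in R 4.3.3 (quasi-likelihood test, robust, TMM, filterByExpr), with Benjamini-Hochberg adjustment over all genes tested and a threshold of 0.05. The pooled fit held the 8 libraries and a term for the experiment (5 residual degrees of freedom). The other comparisons used all libraries of their experiment. DESeq2 1.42.0, another normalization, other filters, a replicate block, other sets of libraries and each library left out were alternatives. Same-numbered libraries deviated together (r = 0.523 in experiment 1 and 0.219 in experiment 2, over 8002 genes with a mean log2 CPM above 3). The labels do not say what a number stands for. The reported fits therefore hold no term for the number, and their p-values take no account of such pairing. Pairing by number entered only in the alternative with a replicate block. The scripts were tested on simulated data. Genes were named by rule: 12 lineage genes, the 12 largest rises and falls with at least 10 CPM and groups that did not overlap, leading and uncalled members of each list, and genes against the WT difference. Genes outside it were chosen after their values were seen. The comparison, the lists and the rule were chosen with earlier results of these data known. Libraries of 17.54 to 30.7 M counts put 3 counts at 0.104 to 0.165 CPM, counting error only. Results for 4 genes are not reported here.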

Additional observations from a re-analysis of the deposited data

Results flagged for a closer look

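The difference between hybrid cells and cDC1 was itself different in H/H and H/+ mice, by edgeR's test of the difference between the log2 differences (H/H minus H/+, 2 libraries per group). Irf8 gave 0.96 (edgeR adjusted p = 0.032), a call lost without any 1 of 7 of the 8 libraries. Among genes that rose less in H/H mice, Sirpa gave -1.84, Itgam -2.09, Cybb -2.05 and Fcer1g -1.14. Ms4a4c gave -1.87, Ube2e2 -1.90, Emb -1.11, Cd72 -1.71 and Tgm2 -1.91. Pram1 gave -5.75 with low counts, at a mean of 0.979 CPM in H/H cDC1.

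The test with and without Nfil3 called Tgm2, which gave -1.22 (H/H Nfil3-/- minus H/H, edgeR adjusted p = 0.0245). That call was lost with a replicate block (edgeR adjusted p = 0.0699) and without any 1 of 7 of the 8 libraries. No group here has 4 or more libraries of 1 experiment, so single libraries that stand apart were not searched for.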

How the results depend on the processing

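The pooled count of 3316 genes was 960 with no term for the experiment, 910 when a 2-fold change was also asked for and 2380 to 3351 with 1 library left out. Experiment 1 alone gave 1772 genes with only its 4 libraries in the fit, 2378 with a replicate block on those 4 and 568 to 765 with 1 library left out. Experiment 2 alone gave 1644, 2545 and 693 to 1158. The test between the experiments called 2 genes with DESeq2, 21 with no filter, 8 with a replicate block and 0 to 5 with 1 library left out. The test between H/H and H/+ called 155 with DESeq2, 219 with no filter, 132 with a replicate block and 24 to 57 with 1 library left out. The Nfil3 test called 7 with DESeq2, 23 with no filter, 0 with a replicate block and 0 to 2 with 1 library left out. WT cDC2 against WT cDC1 gave 5465 to 5636 with 1 library left out. The share of cDC2 genes higher in hybrid cells was 57.4% at 2-fold and 77.9% at 8-fold, and that of cDC1 genes lower was 46.4% and 60.9%. With no term for the experiment Irf8, Irf4, Nfil3, Id2, Tcf4, Xcr1 and Dnajb13 no longer passed. The cause of these changes was not tested. The replicate block (pairing by number) gave 3861 genes in the pooled fit. Among the single genes followed, none that passed as reported turned its direction. Of the other results 2617 values stayed on their side of the threshold or near their count, 129 counts moved, 25 values came to pass the threshold and 29 no longer passed it.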
